A study of Homo sapiens with 12 samples.

Results

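Interferon-stimulated genes (ISGs) were described in 2 Hodgkin lymphoma cell lines with and without forced expression of EBF1, a transcription factor of early B-cell development. The ISGs were 45 genes chosen by symbol, namely interferon-induced effectors, nucleic acid sensors and regulators, with STAT factors and chemokines left out. The array held 47 rows annotated with these symbols, and 44 of the genes had a row naming no other gene, out of 18404 genes with such a row. GBP1 was represented by a row that also lists GBP3 and the pseudogene GBP1P1, and it is reported apart from the 44. L-428 and L-1236 are established lines derived from Hodgkin lymphoma, a tumour of B-cell origin. In the groups L-428 tGFP and L-1236 tGFP the cells carried a vector for the green fluorescent protein tGFP alone. In the groups L-428 tGFP/EBF1 and L-1236 tGFP/EBF1 the vector carried tGFP followed by an internal ribosome entry site and EBF1. All 4 groups were thus transduced, were kept in the same medium with fetal calf serum for 8 days, and were sorted for tGFP. Each group held 3 arrays described in the design as independent samples, so p-values measure the spread between these samples.

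Interferons are cytokines, and those of type I are made when cells sense foreign nucleic acid. Type I interferons act through the receptor chains IFNAR1 and IFNAR2, the kinases JAK1 and TYK2 and a complex of STAT factors with IRF9, which binds the interferon-stimulated response element (ISRE) in the promoters of ISGs. Interferon-gamma acts through a different receptor and the gamma-activated sequence (GAS), with IRF1 and the guanylate-binding proteins (GBPs) among its best-known targets. Many ISGs are also expressed at a low level without added interferon.

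EBF1 signal, the check of the labels, was 22.8-fold higher with tGFP/EBF1 in L-428 and 62.8-fold higher in L-1236 on a row that also lists PDGFRB. Values are log2 array signals as deposited, array medians lay between 7.19 and 7.31, and within-group correlations were at least 0.992. The number of arrays limits the precision, with a median standard error of a log2 change of 0.0694. Mean levels of 6 Hodgkin tumour cell markers lay between 9.73 and 10.58, above the median of all group means (7.63); of these CD40 rose in both lines (1.05 in L-428 and 0.30 in L-1236) and TNFRSF8 (CD30) in L-1236 (0.51). Mean levels of 4 B-cell markers were 6.87 and 6.98 in L-428 without and with EBF1 and 7.35 and 7.67 in L-1236. Of these, CD79A rose in both lines (0.23 and 1.18) and CD79B in L-1236 (0.26). Mean levels of 3 T-cell markers (6.27 to 6.48), 3 monocyte markers (6.69 to 6.83) and 3 natural killer cell markers (6.62 to 6.73) lay below that median in every group. So did CLEC4C (6.26 to 6.44), a marker of plasmacytoid dendritic cells, which are strong producers of interferon. The 3 measured markers of that cell type together had means above that median. These were 8.54 and 8.38 in L-428 without and with EBF1 and 8.27 and 7.85 in L-1236. Of the latter list, IL3RA fell by 0.30 in L-428 and by 0.89 in L-1236 and TCF4 by 0.45 in L-1236 (log2), while the T-cell marker CD3D and the monocyte marker CSF1R rose by 0.32 and 0.36 there, CSF1R to 7.78; the part of these genes in the results was not tested. Replicate 3 of L-428 tGFP stood apart, with an interquartile range of 2.28 against 2.49 and 2.47, and so did replicate 1 of L-1236 tGFP/EBF1, with 2.17 against 2.31 and 2.26.

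The first question was which ISGs differed between cells with EBF1 and control cells of the same line. In L-1236, 13 of the 44 genes fell and 4 rose (limma, Benjamini-Hochberg adjusted p of 0.05 or less), where 5.95% of all 20546 tested rows fell and 3.69% rose (9.64% either way). In L-428 the counts were 3 down and 4 up, where 1.72% of all rows fell and 2.62% rose (4.34% either way). The balance in L-428 depended on the arrays and the scaling. It was 4 down and 4 up without replicate 3 of L-428 tGFP, and 6 down and 4 up without both arrays that stood apart. After median centring it was 2 down and 4 up. The RNA-binding protein gene IFIT2, the STAT-interacting protein gene NMI and the stromal interaction gene EPSTI1 had the largest falls, all in L-1236. BST2, which encodes the virus-tethering protein tetherin, fell to a like extent in both lines, and SAMD9L, which encodes an antiviral and growth-restricting protein, rose in both. IRF1 and GBP4 rose in L-428, GBP4 also in L-1236. NMI in L-1236 was the one gene that also passed the 2-fold limit of the study's design, where 0.146% of all rows did. No gene of the 44 passed that limit in L-428, beside 0.0973% of all rows (limma; 11 had an unadjusted p under 0.05).

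The median change over the 44 genes was -0.10 in L-1236 and -0.017 in L-428, beside 0.0080 and 0.0037 over all rows tested. With rows dim in every group left out, 38 of the genes remained. Their median was then -0.076 in L-1236 and -0.017 in L-428, beside -0.026 and 0.013 over all rows kept. With EBF1, 28 of the 44 lay lower in L-1236 and 27 in L-428 (63.6% and 61.4%, against 46.6% and 48.1% of all rows). Both lines were lower for 21 genes (47.7%, against 23.2% of all rows), both were higher for 10, and 13 had opposite signs. All 3 EBF1 arrays lay below all 3 control arrays for 19 genes in L-1236 (15.1% of all rows) and for 4 in L-428 (6.98% of all rows). They lay above them for 7 genes in L-1236 (11.6% of all rows) and 8 in L-428 (11.3% of all rows). The mean over the 44 genes was 9.12, 9.03 and 8.89 on the L-428 tGFP arrays and 9.03, 9.01 and 9.04 on the L-428 tGFP/EBF1 arrays. Replicate 3 of L-428 tGFP was the lowest of its group for 32 of the 44 genes (46.9% of all rows), and without it the median change in L-428 was -0.094. The corresponding means were 8.55, 8.47 and 8.54 against 8.34, 8.45 and 8.42 in L-1236, so there the groups did not overlap. Replicate 1 of L-1236 tGFP/EBF1 was the lowest of its group for 29 of the 44 genes (38.6% of all rows), and without it the median change in L-1236 was -0.072. In sorted but bulk samples, less RNA per cell and fewer expressing cells cannot be told apart.

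**Figure D1:**
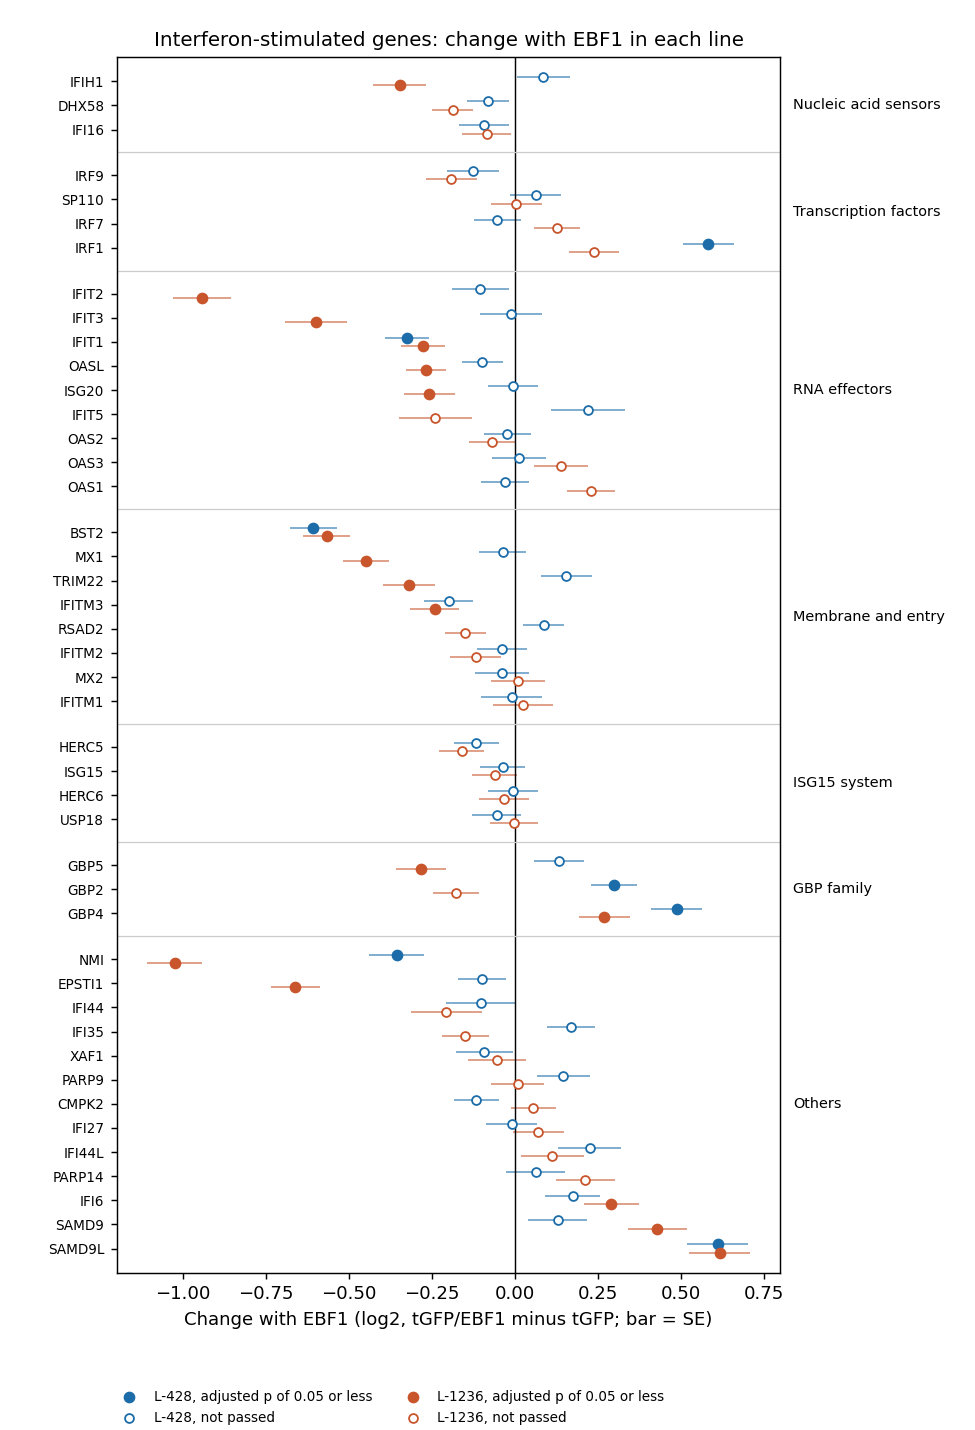
Change with EBF1 (log2 signal, tGFP/EBF1 minus tGFP) of the 44 genes in L-428 (blue) and L-1236 (orange), grouped by role, with standard errors from the limma fit. Filled points passed an adjusted p of 0.05 or less: 7 in L-428 and 17 in L-1236, of which 13 lie to the left of 0.

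Promoter sequence was examined as a description of the genes. It was not itself used to choose them, but they were chosen as interferon-induced, and the ISRE lies in promoters of ISGs. A share of ISRE cores above that of all genes thus follows from the choice and says nothing about the response to EBF1. RefSeq promoter windows (GRCh38.p14, 250 bases before to 50 after the start, 1 window a gene) were matched for 34 of the 45 symbols. No window was available for IFIT2, OASL, TRIM22, GBP2 and GBP5, which passed in a line, so their promoters were not examined. The ISRE core, GAAA, any 2 bases and GAAA on either strand, was found in 22 of the 34 windows (64.7%), against 3.66% of 27305 windows of all genes. The GAS letters, TTC, any 3 bases and GAA, which can overlap an ISRE core, were found in 10 (29.4%, against 7.89% of all windows). The letters TCCC, any 2 bases and GGGA, a core that EBF1 is known to bind, were in 0 of the 34 windows, against 1.21% of all windows, which says only that these letters are not in these stretches. Among genes with a row of their own and a window, an ISRE core was present in 12 of the 14 that passed in either line and in 9 of the 19 that did not. These counts pool rises and falls and leave out the passing genes without a window. Whether the core goes with the response to EBF1 was not tested. The stretches shown run 5′ to 3′ on the gene's own strand, all before the start, with the core in capitals. Among the genes with a window, they are those of the 6 with the largest passing change that have such a core wholly before the start.
NMI, chr2:151289802-151289851, minus strand: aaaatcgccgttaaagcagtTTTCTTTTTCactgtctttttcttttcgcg
EPSTI1, chr13:42992262-42992311, minus strand: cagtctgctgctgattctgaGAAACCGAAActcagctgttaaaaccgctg
BST2, chr19:17405725-17405780, minus strand: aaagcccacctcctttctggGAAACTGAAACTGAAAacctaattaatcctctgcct
IFIT3, chr10:89327821-89327904, plus strand: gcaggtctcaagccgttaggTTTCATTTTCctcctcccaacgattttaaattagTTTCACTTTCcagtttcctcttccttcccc
SAMD9, chr7:93118086-93118135, minus strand: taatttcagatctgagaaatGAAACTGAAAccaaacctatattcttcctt
IFIH1, chr2:162318808-162318863, minus strand: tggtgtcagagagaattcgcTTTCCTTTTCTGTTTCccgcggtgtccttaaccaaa

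The core began 163 bases before the start of NMI, 50 before that of EPSTI1 and 136 before that of SAMD9. BST2 and IFIH1 each had 2 overlapping cores there, the first of them 130 and 159 bases before the start, and IFIT3 had 2 separate ones. The window of IFIH1 held 1 more core, nearer the start and not shown. SAMD9 rose in L-1236 while the other 5 fell there, so the genes with these sequences did not move in 1 direction. SAMD9L and IRF1 also passed, and their windows held no ISRE core; that of IRF1 held the GAS letters.

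Of the 3 sensor genes, 1 changed, in L-1236, where 9.64% of all rows passed. IFIH1 encodes MDA5, a helicase that senses long double-stranded RNA. Its signal was 9.51, 9.36 and 9.45 on the L-1236 tGFP arrays and 8.96, 9.25 and 9.08 on the tGFP/EBF1 arrays, a fall of 0.35 (SE 0.081; limma, adjusted p = 0.00854). In L-428 it was 10.02, 9.97 and 9.79 against 10.13, 9.93 and 9.98, and the arrays overlapped (0.086, adjusted p = 0.792). With 1 array left out, the highest adjusted p of the IFIH1 fall in L-1236 was 0.05 (limma), at the limit. DHX58, which encodes the related helicase LGP2, was 8.20 and 8.01 in L-1236 (limma, adjusted p = 0.0692). IFI16, a sensor of DNA, did not pass in either line (-0.093 in L-428 and -0.085 in L-1236).

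Among the 4 transcription factors, IRF1 rose in L-428. Its signal was 10.25, 10.10 and 9.88 with tGFP and 10.59, 10.66 and 10.72 with EBF1, or 1.5-fold (limma, adjusted p = 9.4e-05), with every EBF1 array above every control array. In L-1236 the values were 9.05, 9.04 and 9.12 against 9.25, 9.33 and 9.34, again without overlap. That difference of 0.24 did not pass (limma, adjusted p = 0.0571). It passed under 9 alternatives, among them quantile normalization (adjusted p = 0.00185), the fit of L-1236 alone (adjusted p = 0.0221) and the fits without replicate 1 or 3 of L-428 tGFP (adjusted p = 0.0288 and 0.00915). IRF9, the DNA-binding part of the type I response complex, IRF7, the amplifier of interferon production, and the nuclear body protein gene SP110 did not pass in either line. Their changes ran from -0.13 to 0.063 in L-428 and from -0.19 to 0.13 in L-1236.

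The RNA effectors held the largest number of falls in L-1236, 5 of 9, where 5.95% of all rows fell. IFIT proteins bind viral RNA and restrain its translation. IFIT2 signal was 8.07, 8.09 and 7.98 on the L-1236 tGFP arrays and 7.01, 7.20 and 7.10 on the tGFP/EBF1 arrays (8.05 ± 0.061 and 7.10 ± 0.0912, mean ± SD, n = 3). It was thus 1.92-fold lower with EBF1 (limma, adjusted p = 6.59e-07). In L-428 it was 8.76, 8.63 and 8.34 against 8.50, 8.38 and 8.53, with overlap (limma, adjusted p = 0.745). Without replicate 3 of L-428 tGFP and replicate 1 of L-1236 tGFP/EBF1, the IFIT2 change in L-428 was -0.22 and passed (limma, adjusted p = 0.0397); without the first of these alone it did not (adjusted p = 0.0783). IFIT3, the partner that stabilises IFIT1 on RNA, was 7.05, 6.89 and 6.95 against 6.14, 6.58 and 6.36 in L-1236, 1.51-fold lower (limma, adjusted p = 0.000238). In L-428 its 3 control values of 8.80, 8.83 and 8.55 enclosed those with EBF1 (8.68, 8.69 and 8.76).

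IFIT1, which binds RNA with an unmethylated cap, fell in both lines. It was 7.54, 7.37 and 7.48 against 7.24, 7.09 and 7.07 in L-428 (-0.33; limma, adjusted p = 0.00619) and 7.01, 6.90 and 6.93 against 6.61, 6.73 and 6.68 in L-1236 (-0.28, adjusted p = 0.00993). All its group means lay below the median of group means, so they rest on dim signal. The call was lost in L-428 without replicate 3 of tGFP/EBF1 (limma, adjusted p = 0.0533) and in L-1236 without replicate 1 of tGFP (adjusted p = 0.0582). OASL, a catalytically inactive relative of the 2′-5′ oligoadenylate synthetases that supports RNA sensing, fell by 0.27 in L-1236, from 7.92, 7.90 and 7.86 to 7.62, 7.58 and 7.69 (limma, adjusted p = 0.00722). ISG20, an exonuclease, was 8.12, 8.06 and 7.87 against 7.92, 7.63 and 7.73 there. These arrays overlapped, and its fall of 0.26 (limma, adjusted p = 0.038) was lost without any 1 of 7 single arrays. These were all 3 arrays of L-428 tGFP/EBF1, replicates 1 and 2 of L-1236 tGFP and replicates 2 and 3 of L-1236 tGFP/EBF1, with a highest adjusted p = 0.181.

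The enzymes OAS1, OAS2 and OAS3, which make the messenger that activates RNase L, did not pass in either line. OAS1 was 8.53, 8.37 and 8.44 against 8.66, 8.67 and 8.70 in L-1236, higher with EBF1 on every array (0.23; limma, adjusted p = 0.0554). IFIT5 was 0.22 in L-428 and -0.24 in L-1236, with a standard error of 0.11 in each, the largest among the 44 genes in the fit.

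Of the 8 membrane and entry effectors, 4 fell in L-1236 and 1 in L-428, and none rose (limma; 0 were higher at an unadjusted p of 0.05 in either line). Over all rows 5.95% fell and 3.69% rose in L-1236, and 1.72% fell and 2.62% rose in L-428. No rise among 8 genes is near those shares. BST2 was 9.96, 9.96 and 9.67 with tGFP and 9.27, 9.26 and 9.24 with EBF1 in L-428, a 1.52-fold fall (limma, adjusted p = 2.7e-05). In the other line, L-1236, its values were 9.38, 9.34 and 9.40 against 8.76, 8.81 and 8.84, a 1.48-fold fall (limma, adjusted p = 2.36e-05). The groups did not overlap in either line, and the difference between the lines' effects was -0.041 (SE 0.1, adjusted p = 0.902). MX1, a dynamin-like GTPase that blocks viral nucleocapsids, was 9.47, 9.32 and 9.44 against 8.90, 8.97 and 9.02 in L-1236, a fall of 0.45 (limma, adjusted p = 0.000244). In L-428 it was 9.09, 8.86 and 8.88 against 8.87, 8.88 and 8.97, with overlap. With EBF1 the L-1236 mean of 8.96 lay beside the L-428 means of 8.94 and 8.91.

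TRIM22, an antiviral ubiquitin ligase, was 6.65, 6.53 and 6.62 against 6.16, 6.39 and 6.30 in L-1236 (-0.32; limma, adjusted p = 0.0115). IFITM3, which hinders viral fusion in endosomes, was 6.87, 6.70 and 6.90 against 6.65, 6.50 and 6.60 there (-0.24, adjusted p = 0.0462). Both rows lay below the median of group means in every group. TRIM22 was lost without replicate 1 of either L-1236 group (adjusted p = 0.0565 for tGFP and 0.0608 for tGFP/EBF1). IFITM3 was lost without any 1 of 7 single arrays (highest adjusted p = 0.202), namely the 3 of L-428 tGFP/EBF1, replicates 1 and 3 of L-1236 tGFP and replicates 2 and 3 of L-1236 tGFP/EBF1. IFITM1, IFITM2 and IFITM3 are close copies of each other, so their rows may share signal. IFITM1 (-0.0093 in L-428 and 0.025 in L-1236), IFITM2, MX2 and the radical-enzyme gene RSAD2 (viperin) did not pass in either line.

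ISG15 is a ubiquitin-like protein, HERC5 its main ligase in human cells, HERC6 a relative of HERC5, and USP18 the protease that removes ISG15 and restrains the type I receptor. None of the 4 genes passed in either line (limma; 1 in L-1236 and 0 in L-428 had an unadjusted p under 0.05), beside 9.64% of all rows in L-1236 and 4.34% in L-428. ISG15 was 7.94, 7.72 and 7.87 against 7.70, 7.86 and 7.86 in L-428 and 8.05, 8.14 and 8.02 against 8.05, 7.99 and 7.98 in L-1236, and the groups overlapped in each. Changes of the 4 genes ran from -0.12 to -0.006 in L-428 and from -0.16 to -0.0021 in L-1236. A second row, annotated with USP18 and the pseudogene USP41P, gave -0.13 and -0.089.

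GBP proteins are large GTPases that attack vacuoles and membranes of intracellular pathogens. GBP4 was 9.64, 9.59 and 9.29 with tGFP and 10.02, 9.94 and 10.02 with EBF1 in L-428, a 1.4-fold rise (limma, adjusted p = 0.000624). The L-1236 values were 7.74, 7.64 and 7.75 against 7.95, 7.99 and 7.99 (0.27, adjusted p = 0.0309). That second call was lost without any 1 of 5 L-1236 arrays, all except replicate 1 of tGFP/EBF1 (highest adjusted p = 0.145). GBP2 rose in L-428, from 8.60, 8.38 and 8.36 to 8.78, 8.68 and 8.78 (0.30; limma, adjusted p = 0.0162), and its second row gave 0.32. It was lost without replicate 2 of L-428 tGFP (adjusted p = 0.0786) or replicate 1 or 3 of L-428 tGFP/EBF1 (adjusted p = 0.0834 and 0.0920). In L-1236 GBP2 lay lower on every EBF1 array (-0.18) and did not pass (limma, adjusted p = 0.127).

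GBP5, which also promotes inflammasome assembly, fell in L-1236, from 8.99, 9.07 and 9.16 to 8.65, 8.91 and 8.82 (-0.28; limma, adjusted p = 0.0211). The call was lost without replicate 2 or 3 of L-1236 tGFP (adjusted p = 0.0671 and 0.119) or replicate 1 or 3 of L-1236 tGFP/EBF1 (adjusted p = 0.111 and 0.0512). In L-428 the GBP5 values were 10.12, 10.09 and 9.90 against 10.20, 10.16 and 10.14, a change of 0.13 that did not pass (adjusted p = 0.484). The row shared by GBP1, GBP3 and GBP1P1 was 10.04, 9.86 and 9.58 against 10.65, 10.61 and 10.70 in L-428, 1.77-fold higher with EBF1 (limma, adjusted p = 1.14e-05). The same row in L-1236 read 7.22, 7.22 and 7.02 against 7.45, 7.51 and 7.55, 1.28-fold higher (limma, adjusted p = 0.0154). All GBP rows were thus higher on every EBF1 array in L-428, while in L-1236 the GBP4 and the shared row were higher and GBP2 and GBP5 lower.

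The remaining 13 genes held the largest fall and the largest rises. NMI, an adaptor that binds STAT factors and IFI35, was 8.77, 8.88 and 8.98 with tGFP and 7.74, 7.94 and 7.87 with EBF1 in L-1236 (8.88 ± 0.103 and 7.85 ± 0.104, mean ± SD, n = 3). It was 2.03-fold lower (limma, adjusted p = 1.36e-07). In L-428 NMI was 9.65, 9.47 and 9.41 against 9.20, 9.00 and 9.27, without overlap (-0.36; limma, adjusted p = 0.0166). That call was lost without replicate 1 of L-428 tGFP (adjusted p = 0.0893), without replicate 2 of L-428 tGFP/EBF1 (adjusted p = 0.117), after median centring (adjusted p = 0.0889) and with every row tested (adjusted p = 0.0599). IFI35, the binding partner of NMI, was 0.17 in L-428 and -0.15 in L-1236 and did not pass. EPSTI1 was 8.75, 8.65 and 8.78 against 7.90, 8.15 and 8.15 in L-1236, 1.58-fold lower (limma, adjusted p = 5.41e-06), and 8.41, 8.33 and 8.24 against 8.21, 8.20 and 8.28 in L-428, with overlap.

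SAMD9L was 11.01, 10.96 and 10.65 with tGFP and 11.55, 11.45 and 11.46 with EBF1 in L-428, a 1.53-fold rise (limma, adjusted p = 0.000365). The L-1236 arrays read 10.95, 10.73 and 10.93 against 11.32, 11.58 and 11.55, a 1.53-fold rise (limma, adjusted p = 0.000146). Both the control levels (10.87 and 10.87) and the levels with EBF1 (11.49 and 11.49) were alike in the lines, and the difference of effects was -0.0061 (SE 0.13). Its neighbour and relative SAMD9 rose in L-1236, from 9.61, 9.46 and 9.62 to 9.81, 10.11 and 10.05 (0.43; limma, adjusted p = 0.0036). In L-428 the SAMD9 difference was 0.13, with overlap (adjusted p = 0.634). IFI6, a membrane protein with antiviral and anti-apoptotic activity, was 9.56, 9.37 and 9.53 against 9.69, 9.81 and 9.84 in L-1236 (0.29, adjusted p = 0.0312). It was lost without replicate 2 or 3 of either L-1236 group (highest adjusted p = 0.169). IFI27, IFI44, IFI44L, XAF1, PARP9, PARP14, CMPK2 and IFI35 did not pass in either line, with changes from -0.12 to 0.23 in L-428 and from -0.21 to 0.21 in L-1236.

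**Figure D2:**
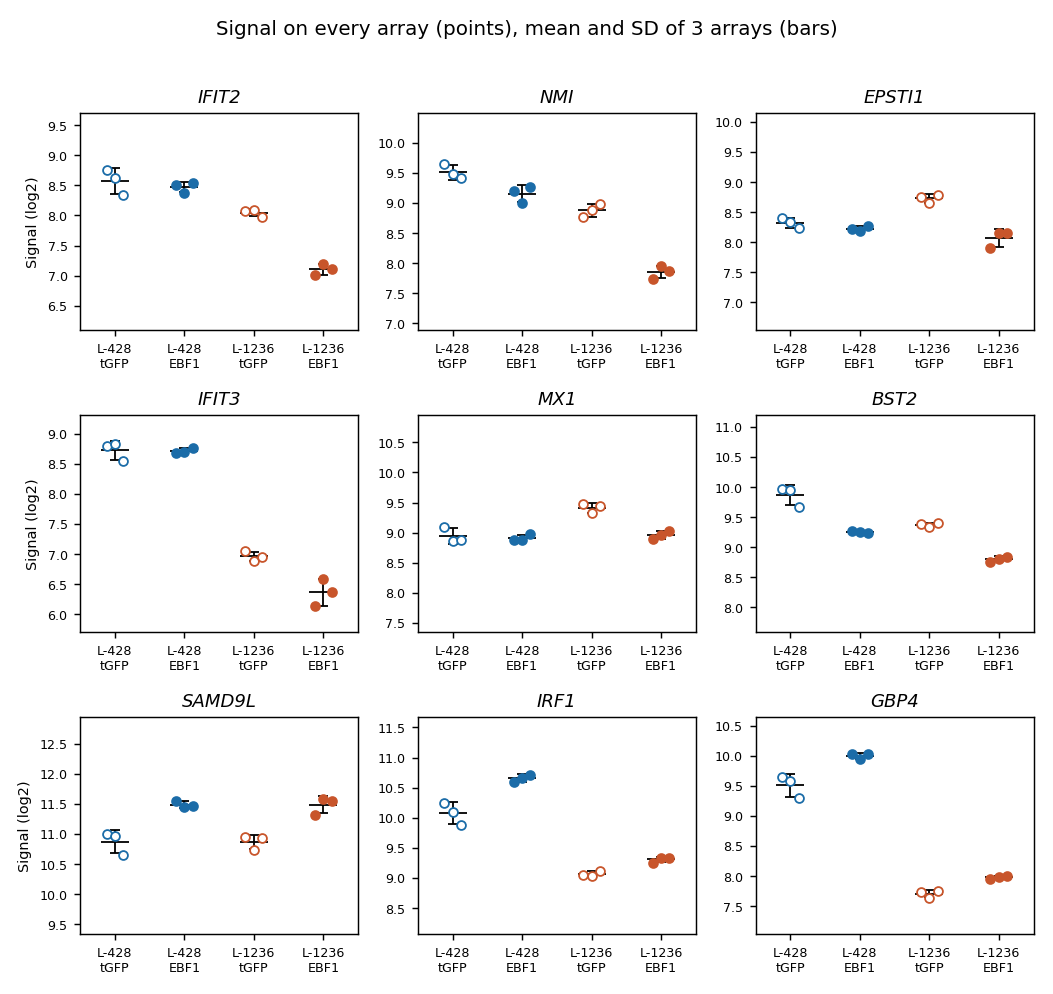
Log2 signal of 9 genes on each of the 12 arrays (points; open for tGFP, filled for tGFP/EBF1), with the mean and SD of each group as bars; every panel spans the same log2 range. IFIT2 and IFIT3 drop in L-1236 and overlap in L-428, BST2 drops in both lines, SAMD9L rises in both, and GBP4 lies near 9.51 in L-428 control cells against 7.71 in L-1236.

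A second question was whether EBF1 acted alike on these genes in both lines, tested as the difference of the effects (L-428 minus L-1236). It passed for 9 of the 44 genes, each with the more positive change in L-428, where 3.38% of all rows passed in that direction and 1.79% in the other (5.16% either way; limma; at an unadjusted p of 0.05, 14 genes were more positive in L-428 and 2 in L-1236). After quantile normalization 11 genes passed as more positive in L-428 and 2 as more positive in L-1236. Without both arrays that stood apart these counts were 9 and 3, and without replicate 3 of L-428 tGFP alone 8 and 2. After median centring they were 6 and 0. That every passing gene was more positive in L-428 thus depends on single arrays and on the scaling. IFIT2 differed most, by 0.84 (SE 0.12; limma, adjusted p = 0.000363), followed by NMI (0.67, adjusted p = 0.00181), IFIT3 (0.59, adjusted p = 0.012) and EPSTI1 (0.56, adjusted p = 0.00265). GBP2 (0.48, adjusted p = 0.00643), TRIM22 (0.47, adjusted p = 0.0146), IFIH1 (0.43, adjusted p = 0.0333) and GBP5 (0.42, adjusted p = 0.0275) were higher with EBF1 in L-428 and lower in L-1236. Of these, GBP2 passed in L-428 alone, and TRIM22, IFIH1 and GBP5 passed in L-1236 alone. MX1 (0.41, adjusted p = 0.0183) fell in L-1236, as did the first 4. In L-428 only NMI of these passed, while IFIT2, IFIT3, EPSTI1 and MX1 overlapped there, with changes such as -0.012 for IFIT3 and -0.037 for MX1. Of the 9, IFIT2, NMI, EPSTI1 and GBP2 passed in all 23 alternative fits that give this difference, the thresholds of an adjusted p of 0.01 and 2-fold apart. The other 5 were lost with every row tested (adjusted p = 0.0503 for IFIT3, 0.0517 for TRIM22, 0.0540 for MX1, 0.0804 for GBP5 and 0.0972 for IFIH1). After median centring IFIT3 (adjusted p = 0.0530), GBP5 (0.0899) and IFIH1 (0.100) were lost, and IFIH1 also without both arrays that stood apart (0.0803). IFIH1 and GBP5 were each lost without any 1 of 7 single arrays (highest adjusted p = 0.109 and 0.0868) and MX1 without any 1 of 3 (replicate 3 of L-428 tGFP/EBF1 and replicates 1 and 3 of L-1236 tGFP, highest adjusted p = 0.0642). For IFIH1 these included replicate 3 of L-428 tGFP, and for both genes replicates 1 and 3 of L-428 tGFP/EBF1, replicate 3 of L-1236 tGFP and replicates 1 and 3 of L-1236 tGFP/EBF1. The remaining array was replicate 1 of L-1236 tGFP for IFIH1, and replicate 2 of L-428 tGFP/EBF1 and of L-1236 tGFP for GBP5. Without replicate 3 of L-428 tGFP, SAMD9 passed as more positive in L-1236 (-0.41; limma, adjusted p = 0.0365), and without replicate 1 IRF1 passed as more positive in L-428 (0.43, adjusted p = 0.0165). No difference of effects reached 2-fold among the 44 genes, beside 0.156% of all rows (limma; 16 had an unadjusted p under 0.05).

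**Figure D3:**
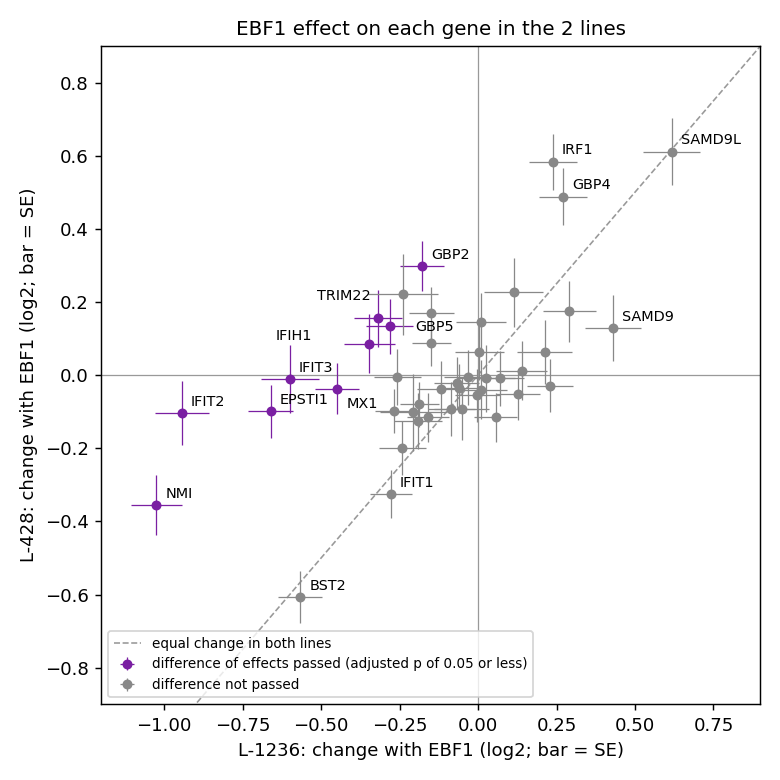
Change with EBF1 in L-1236 (horizontal) against the change in L-428 (vertical) for the 44 genes, in log2 units with standard errors; the dashed line marks an equal change. The 9 genes in purple, whose difference of effects passed, all lie above the line, while BST2, IFIT1 and SAMD9L lie on or next to it.

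Neighbouring ISGs were also set side by side. By RefSeq gene order, 26 of the 45 genes lie in 10 groups with at most 3 protein-coding genes between members. On chromosome 10, IFIT2, IFIT3, IFIT1 and IFIT5 form such a group, and their changes in L-1236 were -0.94, -0.60, -0.28 and -0.24, the last not passing. In L-428 the values of these 4 genes were -0.10, -0.012, -0.33 and 0.22, and IFIT1 alone passed. On chromosome 21, MX1 fell in L-1236 while MX2, its neighbour, was 6.82 in control cells and 6.83 with EBF1. On chromosome 7, SAMD9 and SAMD9L both rose in L-1236. On chromosome 1, GBP4 rose and GBP5 fell in L-1236. The OAS group on chromosome 12 and the HERC5 and HERC6 pair on chromosome 4 held no gene that passed with EBF1 in either line (limma; OAS1 and HERC5 had an unadjusted p under 0.05 in L-1236, 0.00558 and 0.0293).

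Control cells of the lines were compared to see how the genes stood before EBF1. Of the 44 genes, 26 were higher in L-428 tGFP and 8 higher in L-1236 tGFP (limma), where 26.1% and 21.7% of all rows were (47.9% either way). The median difference was 0.34 (L-428 minus L-1236), beside -0.0063 over all rows, and 12 genes differed at least 2-fold, as did 7.2% of all rows. HERC6 differed most. Its signal was 9.64, 9.52 and 9.26 in L-428 and 6.38, 6.31 and 6.33 in L-1236, or 8.78-fold (limma, adjusted p = 7.78e-17). MX2, which blocks nuclear entry of some viruses, was 9.70, 9.69 and 9.32 against 6.88, 6.80 and 6.78, or 6.74-fold. IFIT5 (3.7-fold), GBP4 (3.48-fold), IFIT3 (3.39-fold) and IFITM2 (2.79-fold) were also higher in L-428. The L-1236 means of HERC6, MX2, IFIT3 and IFIT5 lay below the median of group means.

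In the other direction IFI44, a cytoplasmic protein of uncertain function, was 7.47, 7.24 and 7.28 in L-428 and 8.50, 8.23 and 8.57 in L-1236, 2.15-fold higher in the latter (limma, adjusted p = 4.11e-08). Its neighbour IFI44L was 1.98-fold higher in L-1236, SP110 1.76-fold, IFITM3 1.42-fold, MX1 1.38-fold and EPSTI1 1.32-fold. MX1 and EPSTI1, higher in L-1236 control cells, fell there with EBF1 to 8.96 and 8.07, beside 8.94 and 8.33 in L-428 control cells. IFIT3 and IFIT2 were already lower in L-1236 control cells and fell further. HERC6 and MX2, the genes with the largest control difference, did not pass with EBF1 in either line (-0.006 and -0.04 in L-428, -0.033 and 0.011 in L-1236). IFITM1, OAS2, IRF7, ISG20, RSAD2 and SAMD9L were among the 10 genes that did not differ between control cells past the test, with values in L-428 and L-1236 of 11.77 and 11.83 for IFITM1, for example.

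**Figure D4:**
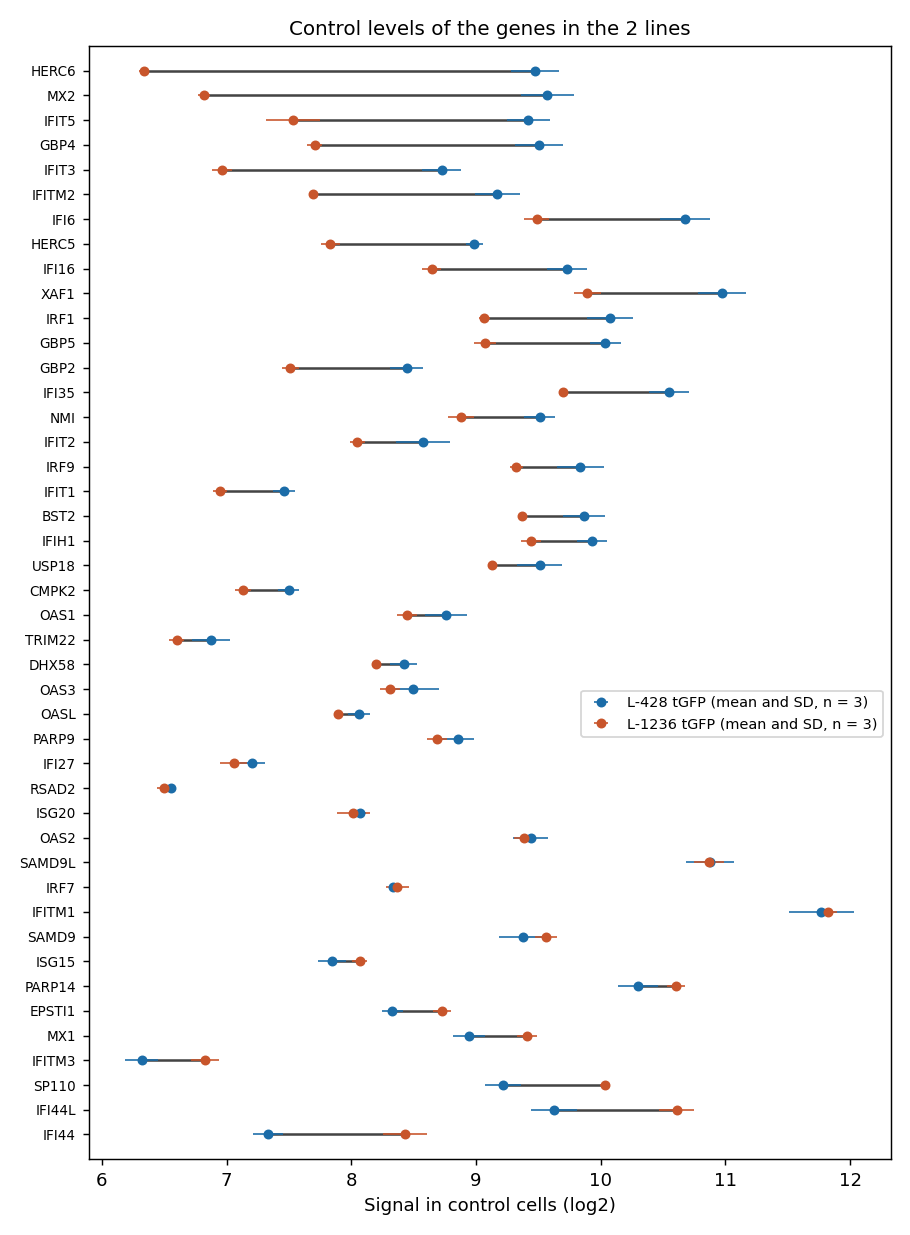
Log2 signal of the 44 genes in L-428 tGFP (blue) and L-1236 tGFP (orange) control cells, mean and SD of 3 arrays, ordered by the difference; dark connecting lines mark an adjusted p of 0.05 or less. HERC6 and MX2 at the top are 8.78-fold and 6.74-fold higher in L-428, and IFI44 at the bottom is 2.15-fold higher in L-1236.

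Other genes of the pathway were taken from lists chosen by function. Of 16 receptors, kinases, STAT factors and inhibitors measured, 1 fell in L-428 and 2 rose in L-1236. For this list and those that follow, the background shares are those given above. JAK2 fell by 0.24 in L-428 (limma, adjusted p = 0.0488). The feedback inhibitors SOCS1 (0.33) and SOCS3 (0.20) rose in L-1236 (limma, adjusted p = 0.0192 and 0.0226). The type I receptor chains and their kinases did not pass in either line. IFNAR1 was 0.03 in L-428 and -0.16 in L-1236, IFNAR2 -0.18 and -0.11, JAK1 0.075 and 0.069, and TYK2 0.02 and 0.064.

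Of 16 interferon genes measured, 15 lay at or below the median of group means in all groups. IFNB1, the gene of interferon-beta, was 5.90 and 5.85 in L-428 and 5.92 and 5.85 in L-1236, without a change past the test. IFNG, the gene of interferon-gamma, was 6.75, 6.70 and 6.62 in L-428 tGFP and 7.17, 7.22 and 7.06 in L-428 tGFP/EBF1, a rise of 0.46 (limma, adjusted p = 9.4e-05) at a level below the median of group means. It was 6.16 and 6.13 in L-1236, and the difference of effects passed (limma, adjusted p = 0.00166). IFNL3 fell by 0.30 in L-428 (limma, adjusted p = 0.0305), on a row whose near-identical copy IFNL2 may share signal. In L-1236 no interferon gene passed (limma; 0 had an unadjusted p under 0.05).

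Of 18 nucleic acid sensors and adaptors, 2 rose and 1 fell in L-428, while 3 fell and 0 rose in L-1236 (limma; 1 was higher there at an unadjusted p of 0.05). Among all rows 2.62% rose and 1.72% fell in L-428, and 3.69% rose and 5.95% fell in L-1236. The endosomal RNA receptors TLR7 (0.51; limma, adjusted p = 0.000736) and TLR3 (0.34) rose in L-428, and the DNA-pathway adaptor gene STING1 (-0.31) fell there. TRAF6 (-0.38), the DNA sensor AIM2 (-0.30) and TRAF3 (-0.29) fell in L-1236. Of 10 further regulators, IRF8 rose in L-428 (0.46) and BATF2 fell in L-1236 (-0.25), and IRF3 did not pass in either line (0.073 and 0.038).

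Among 45 further interferon-induced genes, 7 went up and 4 down past the test in L-428, and 6 up and 7 down in L-1236. The shares over all rows were 2.62% up and 1.72% down in L-428, and 3.69% up and 5.95% down in L-1236. LGALS3BP, a secreted glycoprotein, was 7.31, 7.34 and 7.27 in L-428 tGFP and 8.29, 8.44 and 8.21 in L-428 tGFP/EBF1, 2.01-fold higher (limma, adjusted p = 2.13e-08), and it rose by 0.22 in L-1236. APOL6 fell by 0.84 in L-1236 (limma, adjusted p = 2.66e-07) and by 0.28 in L-428. TRIM14, an adaptor of antiviral signalling, fell in both lines (-0.59 in L-428 and -0.52 in L-1236), and IFI30, a lysosomal thiol reductase, rose in both (0.54 and 0.38). GBP3 rose in both lines as well (0.31 and 0.50), and SLFN5 rose in L-428 (0.43). The medians of this list, 0.029 in L-428 and 0.026 in L-1236, lay beside 0.0037 and 0.0080 over all rows.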

How the data were processed

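Whole-transcript arrays, 12 in all and 3 for each of 4 groups, were analysed, with groups and replicate numbers taken from the sample titles. The authors deposited 1 log2 value per array and row, and the log base was inferred from the values, which are too large for a natural or base-10 logarithm of a 16-bit scanner's range. How the rows were summarized and scaled is not given in the sources used here, and no background signal was used. Rows with a gene symbol in the platform annotation (20546 of 32321, of which 1388 list several symbols) were fitted in limma 3.58.1 under R 4.3.3 with lmFit and eBayes, 4 group means over 12 arrays and no block (8 residual and 9.98 prior degrees of freedom). Benjamini-Hochberg adjustment ran over all these rows within each contrast, and a row passed at 0.05. For a gene with more than 1 row, the brightest stood for it, and rows with several symbols name no gene except where stated. The genes, lists and tests were chosen with earlier results of these data known.

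Array values are given for every gene that passed in an EBF1 contrast or in the difference of effects, the 6 largest control differences in each direction are named, and so are up to 6 passing genes of each further list; some genes of these lists were not analysed here. Promoter windows were taken from RefSeq (GRCh38.p14), with the window at the gene's outer start preferred. The fit was tested on simulated data. Same-numbered arrays of a line did not vary together (correlations of deviations from group means from -0.210 to 0.283), so numbers were not used as pairs. The settings varied were the scaling (quantile, or centring on the median), the rows that entered (without dim rows, all rows, 1 a symbol), the variance model (trend and robust, array weights), fits of 1 line alone, a block on replicate number, each array left out, both unusual arrays left out, an adjusted p of 0.01, the 2-fold limit and means of several rows. Gene-by-gene array weights were added after seeing the data, since the default weighting stopped before it converged. Plots were made in matplotlib 3.10.9 (Python 3.11.15).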

Additional observations from a re-analysis of the deposited data

Results flagged for a closer look

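The effect of EBF1 on 9 of the 44 genes differed between the lines by a test of the difference itself, as the report gives. The differences (L-428 effect minus L-1236 effect, log2) were 0.84 for IFIT2, 0.67 for NMI, 0.59 for IFIT3, 0.56 for EPSTI1, 0.48 for GBP2, 0.47 for TRIM22, 0.43 for IFIH1, 0.42 for GBP5 and 0.41 for MX1. GBP2 is the one gene of these that passed as a rise in L-428. It lay lower on every EBF1 array in L-1236, and its second row gave a difference of 0.48. GBP5 also lay higher on every EBF1 array in L-428 and lower on every one in L-1236, but passed in L-1236 alone. NMI fell in both lines and fell further in L-1236. The row shared by GBP1, GBP3 and GBP1P1 also differed, by 0.47 (limma, adjusted p = 0.0349), with a rise in both lines.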

How the results depend on the processing

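The counts of genes that passed were 7 in L-428, 17 in L-1236, 9 for the difference of effects and 34 between control cells. With 1 array left out they ranged from 5 to 8, from 12 to 21, from 6 to 10 and from 33 to 36. With default array weights they were 11, 30 and 21 in the first 3 comparisons (the weighting did not converge), and with gene-by-gene weights 26 in L-1236 and 17 for the difference. For the difference, 13 genes were more positive in L-428 and 8 in L-1236 with default weights, and 13 and 4 with gene-by-gene weights. In L-428, 7 genes fell and 4 rose with default weights, and 6 fell and 4 rose with gene-by-gene weights. At an adjusted p of 0.01, 11 genes passed in L-1236 and 4 for the difference. With the 2-fold limit 0 passed in L-428, 1 in L-1236, 0 for the difference and 12 between control cells. With every row tested 4 passed for the difference. Median centring and testing every row each ended the calls of NMI in L-428 and of IFI6, GBP4, GBP5 and IFITM3 in L-1236; testing every row ended that of ISG20, and fitting L-1236 alone those of ISG20 and IFITM3. The replicate block gave 7, 18, 10 and 34, so it moved no count by over 1.5 times; in neither line did every array correlate best with its own number. The other alternatives kept these counts within 1.5 times. The median change in L-428 ranged from -0.094 to 0.029 with 1 array left out and was -0.094 without both unusual arrays, so its sign depends on single arrays. In L-1236 it ranged from -0.13 to -0.072, and between control cells from 0.26 to 0.37, with 0.44 when dim rows were left out. Of the genes called, 4 of 7 in L-428 (BST2, IRF1, SAMD9L and GBP4), 10 of 17 in L-1236 and 4 of 9 for the difference passed in every refit that included them, up to 24, the stricter thresholds apart. No named gene that was called changed sign. The cause of these shifts was not tested. Rows near the median of group means or below it have no background measure, so small changes of IFIT1, IFI27, RSAD2, CMPK2, TRIM22 and IFITM3, dim in every group, are the least certain. Other rows were dim in L-1236 only, among them IFIT3 (6.96 without and 6.36 with EBF1), GBP2 (7.51 and 7.33) and the row shared by GBP1 (7.16 and 7.51). Their changes in L-1236 and their differences of effects also rest on dim signal. IFIT2 in L-1236 lay above the median of group means without EBF1 (8.05) and below it with EBF1 (7.10), so its fall there ends in dim signal.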
